A study of Caenorhabditis elegans with 12 samples.

Results

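Larvae under mild *nuo-5* RNAi were compared with empty vector controls on 8 of the 12 arrays of the series, those whose genotype labels name these conditions, and the comparison was read across all 25478 genes that the annotation names singly. The 4 mild and the 4 control arrays carry the replicate numbers I, III, IV and V and were taken as same-numbered pairs, so that each gene has 4 differences, mild minus control, on the log2 scale. Values of single arrays and differences of single pairs are given in the order I, III, IV, V. Mild arrays hold RNA of whole N2 (wild-type) L3 larvae fed *nuo-5* RNAi bacteria in the parental generation. Control arrays, labelled WT, hold RNA of whole N2 L3 larvae fed bacteria with the empty vector pL4440. All were kept at 20 °C. Strong RNAi, read in the filial generation on the remaining 4 arrays, is used here only as context. The labels mention plates with lutein or DMSO without saying which array had which, and no source used here gives the generation of the control larvae. Expression comes from Affymetrix Gene ST arrays for *C. elegans* and is given as log2 values, in which a difference of 1 is a doubling.

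*nuo-5* encodes the *C. elegans* orthologue of NDUFS1, the iron-sulfur core subunit through which complex I passes electrons from NADH towards ubiquinone. Worms fed double-stranded RNA silence the matching gene in many tissues, and partial loss of respiratory chain subunits is known in this species for slow development and for raising mitochondrial chaperones, targets of the hypoxia factor HIF-1 and detoxification enzymes. The study separated a mild from a strong degree of silencing to ask which changes come with each.

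Markers of the main tissues were present on the arrays of both groups. The muscle myosin gene *unc-54* lay at 12.05 to 12.21 on mild and 12.10 to 12.34 on control arrays, the intestinal filament gene *ifb-2* at 10.21 to 10.79 and 10.05 to 10.65, the epidermal factor gene *lin-26* at 9.46 to 9.73 and 9.51 to 9.91, and the neuronal gene *rab-3* at 6.88 to 7.48 and 6.98 to 7.57. Markers of adults and oocytes were not uniform. The yolk protein gene *vit-2* was low in both groups, with 2.81 to 3.36 on mild and 2.89 to 3.88 on control arrays. The adult collagen gene *col-19* was low too, with 2.63 to 2.99 and 2.65 to 3.09. *vit-5* and *vit-6* reached at most 3.27 and 3.93 on these arrays. *cpg-2* lay well above these, at 6.85 to 7.06 on mild and 6.76 to 7.23 on control arrays. *rme-2* had 3.87 to 4.45 and 3.55 to 4.16 and was higher in all 4 pairs. In RNA of whole larvae fewer cells of a type and less RNA per cell cannot be told apart. The median SD between arrays of a group was 0.22 for mild and 0.21 for control, and the number of arrays limits the precision.

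The RNAi target itself was lower on every mild array. *nuo-5*, read by probe set 18579154, had log2 values of 7.15, 7.56, 7.25 and 7.66 on mild arrays, against 8.29, 8.56, 8.43 and 8.42 on the control arrays. Within pairs I, III, IV and V the larvae thus kept 45.3%, 49.8%, 44% and 59.2% of the control signal, so that the smallest reduction was that of pair V. Where its probes lie relative to the sequence of the RNAi clone is not given in the sources used here. With the signs of the 4 differences permuted, the two-sided exact test gave p = 0.125, the smallest that 4 pairs allow.

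In limma, 5 of 29317 probe sets (0.0171%) passed an adjusted p of 0.05, 4 of them (0.0136%) higher and 1 (0.00341%), that of *nuo-5*, lower. The flavin-containing monooxygenase gene *fmo-2* had 4.36, 4.46, 4.89 and 3.92 on mild arrays, against 2.78, 2.94, 2.81 and 3.06 on the control arrays. T16G1.6 (probe set 18596385) had 7.44, 7.51, 7.09 and 6.97 on mild arrays, against 5.65, 6.22, 5.45 and 6.08 on control arrays. For both genes the lowest mild value was that of array V, and the groups did not overlap. The control mean of *fmo-2* was under 3.01, the 40th percentile over all probe sets, where a fold is measured less well. B0205.13 (probe set 18464574) had 9.74, 9.58, 9.89 and 9.28 on mild arrays, against 8.44, 8.50, 7.85 and 8.43 on control arrays. Probe set 18617499, which the annotation does not name, had 6.37, 6.47, 6.33 and 6.08 on mild arrays, against 5.40, 5.01, 5.13 and 5.59 on control arrays. The smallest difference of both lay again in pair V, at 0.85 for B0205.13 and 0.49 for probe set 18617499. Log2 fold changes were 1.51 for *fmo-2*, 1.40 for T16G1.6, 1.31 for B0205.13, 1.03 for probe set 18617499 and −1.02 for *nuo-5*, and limma's adjusted p was 0.0471 for each. When the replicate number entered limma as a block, the adjusted p became 0.184 for the unnamed probe set and 0.152 for the other 4, so that 0 probe sets passed, while 1314 had an unadjusted p under 0.05 (980, or 3.34%, without the block). In the fit of the 8 arrays alone 0 of these 5 passed (adjusted p in limma 0.181 to 0.245), and 1 other did, probe set 18450597, which has no single gene symbol and was singled out after its values were seen. It had 5.07, 5.07, 5.04 and 5.08 on mild arrays, against 3.55, 3.67, 3.35 and 3.20 on control arrays, a difference of 1.62 with an adjusted p in limma of 0.00601 in the 8 arrays and 0.946 in the 12.

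**Figure D1:**
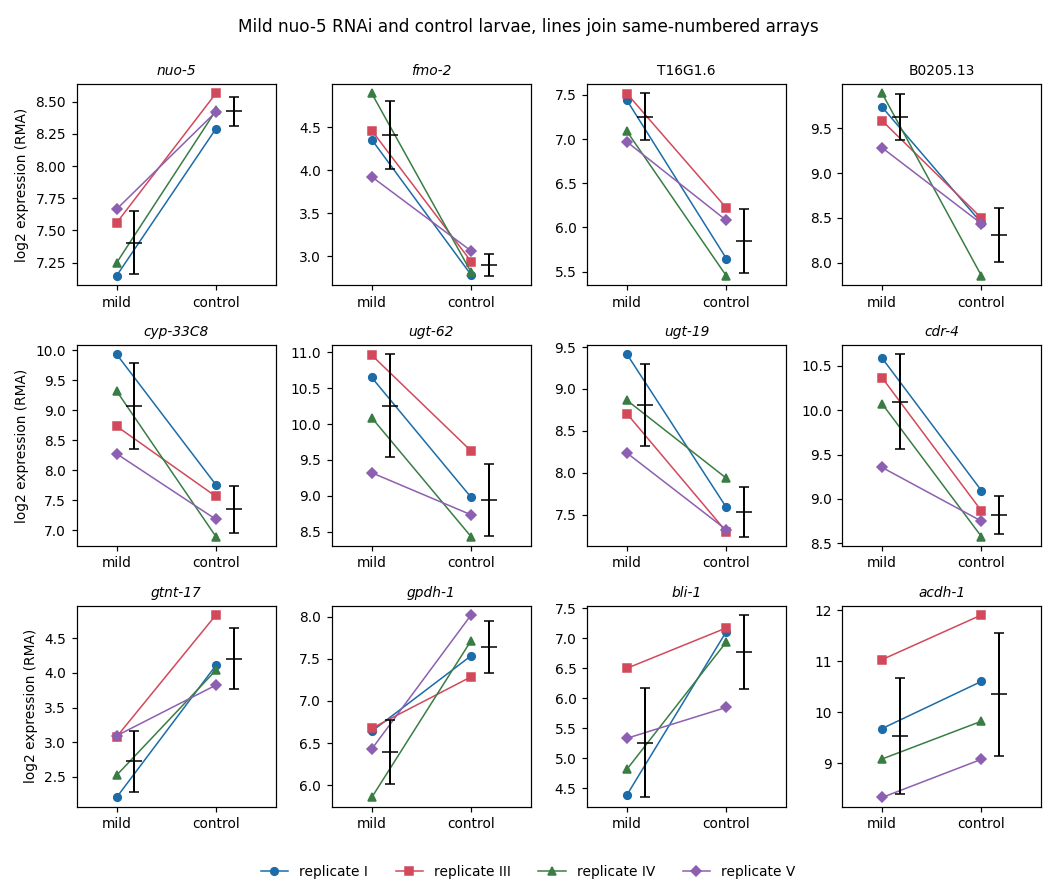
Log2 expression (vertical axis) of 12 genes on the 4 mild and the 4 control arrays (horizontal axis), with lines joining arrays of one replicate number and black bars giving the mean ± SD (n = 4). All 12 genes differ in one direction in all 4 pairs, with group ranges that overlap for *ugt-62*, *bli-1* and *acdh-1*.

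Beyond the calls, the size of the paired differences gives a ranking without a test. A gene was kept when its mean over the 8 arrays reached that percentile (3.01) and when its 4 differences shared a sign and were each at least 0.3 in size. Of 15253 genes bright enough, 125 (0.82%) met this, 72 (0.472%) higher and 53 (0.347%) lower. The ranges of the groups were apart for 65 of the 125, namely 46 of the higher and 19 of the lower genes. The choice sets this count in part, and nothing is read from it beside the 2.49% of the 15253 genes and 2.46% of all probe sets with such ranges. The smallest difference that still counted was 0.302 for Y17G9B.8 among the higher and 0.303 for *trx-5* among the lower genes, while the nearest genes left out had 0.298 on the higher side and 0.296 (*ptr-19*) on the lower side. Most of the 125 code for proteins, while 10 of the higher and 11 of the lower genes are annotated as non-coding RNAs.

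**Figure D2:**
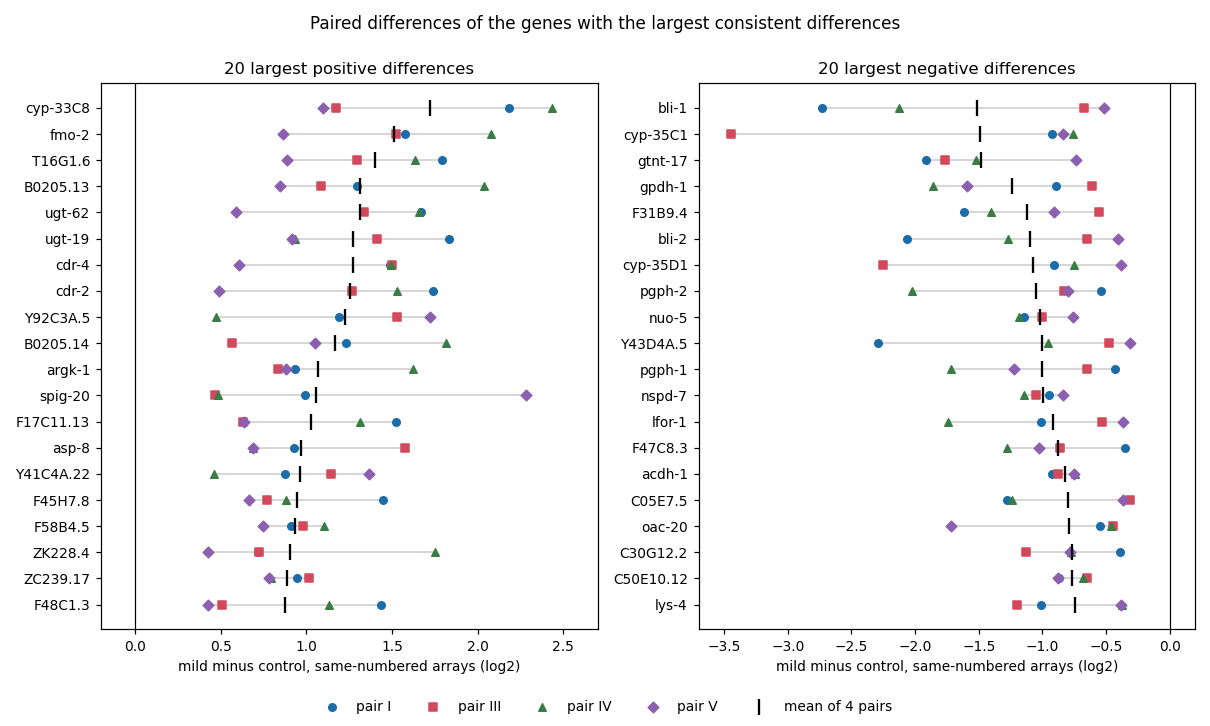
Mild minus control difference (log2, horizontal axis) in pairs I, III, IV and V for the 20 largest positive (left) and the 20 largest negative (right) mean differences among the 125 genes, with the mean of the 4 pairs as a black tick. Pair V often gives the smallest difference, and *cyp-35C1* at −3.45 in pair III is the point farthest from its own other pairs.

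Enzymes of xenobiotic metabolism took several of the first places among the higher genes. *cyp-33C8*, a cytochrome P450 gene, had the largest mean difference of all, with 9.94, 8.74, 9.32 and 8.28 on mild arrays, against 7.76, 7.56, 6.89 and 7.18 on control arrays. Its log2 fold change was 1.72 with a standard error of 0.31, and its adjusted p in limma was 0.245. Every mild array lay above every control array, with larger differences in pairs I and IV than in III and V. *ugt-62*, one of the genes for UDP-glucuronosyltransferases, which attach a sugar to foreign or surplus compounds, had 10.65, 10.96, 10.09 and 9.32 on mild arrays, against 8.98, 9.62, 8.43 and 8.73 on control arrays. *ugt-19* had 9.42, 8.71, 8.87 and 8.24 on mild arrays, against 7.59, 7.30, 7.93 and 7.32 on control arrays. The groups overlapped for *ugt-62*, whose difference was 0.59 in pair V and at least 1.34 in the others, and were apart for *ugt-19*. *ugt-61* differed by 1.68, 1.35 and 1.44 in pairs I, III and IV and by 0.04 in pair V. *cdr-4* and *cdr-2*, named for their response to cadmium, were higher on every mild array too. *cdr-4* had 10.58, 10.36, 10.07 and 9.35 on mild arrays, against 9.09, 8.87, 8.58 and 8.75 on control arrays. *cdr-2* had 8.90, 8.45, 8.30 and 7.75 on mild arrays, against 7.16, 7.18, 6.77 and 7.26 on control arrays. Neither pair of groups overlapped, and the smallest differences, 0.60 and 0.49, were those of pair V. For these genes limma's adjusted p was 0.340 (*ugt-19*), 0.601 (*cdr-4*) and 0.638 (*cdr-2*). *ugt-62* did not pass either, with a standard error of 0.35 and an unadjusted p of 0.00285 in limma. With the block limma's adjusted p was 0.152 for *ugt-62* and *cdr-4*, 0.242 for *ugt-19* and 0.228 for *cdr-2*. The paralogues may share probes, which was not tested.

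Most members of these families did not meet the rule above, but an absence of change is not shown for them. A 95% interval in limma within ±0.58 was found for 27 of 74 cytochrome P450 genes (36.5%). It was found for 22 of 67 UDP-glucuronosyltransferase genes (32.8%), against 65.4% of all named genes. Of the cytochrome P450 genes 28 had a mean under 3.01. Of 74 cytochrome P450 genes 0 passed, 1 had a consistent positive and 2 a consistent negative difference, and the median log2 fold change was 0.01 (−0.02 after a further quantile normalization), against 0.00 over all named genes. At an unadjusted p under 0.05 in limma 6 of them were higher and 4 lower, while 3.18% of all named genes reached that level in either direction. Of 67 UDP-glucuronosyltransferase genes 0 passed, with 4 at an unadjusted p under 0.05 on the higher and 1 on the lower side and a median of 0.04. Of 48 glutathione S-transferase genes, which encode enzymes that conjugate glutathione, 0 passed and 1 reached an unadjusted p under 0.05 (*gst-6*, 0.39), with a median of 0.11. In this family 8 genes (16.7%) were higher in all 4 pairs and 0 were lower in all 4, against 7.71% and 7.23% of all named genes. *gst-17* had the largest mean of these, with differences of 0.51, 1.49, 0.64 and 0.31, and *gst-4*, a common reporter of oxidative stress, had differences of −0.12, −0.03, 0.46 and −0.74.

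*cyp-35C1*, *cyp-35A2* and *cyp-35D1*, of a further group of the cytochrome P450 family, lay on the other side. They were named for the size of their differences, and other *cyp-35* genes are not described here. *cyp-35C1* had 5.03, 2.75, 4.91 and 5.13 on mild arrays, against 5.95, 6.20, 5.66 and 5.97 on control arrays. *cyp-35A2* had 6.68, 4.39, 6.84 and 6.78 on mild arrays, against 7.48, 7.47, 7.09 and 7.27 on control arrays. Both were lowest on mild array III, and strong array III was also the lowest of the strong arrays for each (2.35 and 4.74). *cyp-35D1* had 3.93, 3.88, 4.44 and 4.40 on mild arrays, against 4.84, 6.13, 5.19 and 4.78 on control arrays. Here it was control array III that stood high. Without pair III the mean differences were −0.84 for *cyp-35C1*, −0.51 for *cyp-35A2* and −0.68 for *cyp-35D1*, against −1.49, −1.15 and −1.07 with it.

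*gpdh-1*, *pgph-2* and *pgph-1*, found among the largest negative differences and not taken from a list of their pathway, were each lower on all mild arrays than on any control array. *gpdh-1*, which encodes a glycerol-3-phosphate dehydrogenase of glycerol synthesis that responds to osmotic stress, had 6.64, 6.68, 5.85 and 6.43 on mild arrays, against 7.54, 7.29, 7.72 and 8.02 on control arrays. *pgph-2*, a gene of the phosphatase family that releases glycerol from glycerol-3-phosphate, had 7.33, 7.44, 6.81 and 7.83 on mild arrays, against 7.87, 8.27, 8.84 and 8.63 on control arrays. Its relative *pgph-1* had 6.30, 6.59, 5.90 and 6.13 on mild arrays, against 6.73, 7.24, 7.62 and 7.35 on control arrays. For all 3 the difference was largest in pair IV (−1.86, −2.03 and −1.72). The log2 fold changes were −1.24, −1.05 and −1.01 with standard errors of 0.32, 0.26 and 0.23. None of these passed in limma, where *pgph-1* had an adjusted p of 0.946.

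Several genes for breaking down propionate and for making methionine were lower in each pair without passing in limma. *acdh-1*, the acyl-CoA dehydrogenase gene of the propionate shunt and a sensor of vitamin B12 in worms, had 9.68, 11.04, 9.09 and 8.33 on mild arrays, against 10.61, 11.91, 9.83 and 9.08 on control arrays. The groups overlapped widely (SD 1.14 and 1.21), yet the 4 differences lay between −0.93 and −0.74. limma's unadjusted p was therefore 0.246 without and 0.0145 with the replicate block, and neither passed after adjustment. *metr-1*, the B12-dependent methionine synthase gene, had differences of −0.66, −0.98, −0.53 and −0.39, and *mthf-1*, whose product makes the methyl donor for it, −0.45, −0.66, −0.52 and −0.13. *hphd-1*, a later enzyme of the propionate shunt, had −0.21, −0.83, −0.02 and −0.58. The nuclear receptor gene *nhr-68*, which is known to switch on the shunt and was chosen after its values were seen, had −0.45, −1.18, −0.63 and −0.42. Pair III gave the largest difference in each of these genes except *acdh-1*, where pair I did. Of the 28 genes of the methionine and one-carbon list 0 passed, and the median log2 fold change was −0.15. In all 4 pairs 10 (35.7%) were lower and 2 (7.14%) higher, against 7.23% and 7.71% of all named genes.

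Genes of fatty acid metabolism showed the same uneven picture. *fat-7*, a stearoyl-CoA desaturase gene, had 7.38, 8.49, 7.98 and 9.30 on mild arrays, against 8.63, 9.50, 9.29 and 9.51 on control arrays. Its difference was at least 1.01 in size in pairs I, III and IV and −0.21 in pair V. Of 16 desaturase and elongase genes 0 passed, and the median was −0.18. In all 4 pairs 7 (43.8%) were lower and 0 higher, against 7.23% and 7.71% of all named genes. *elo-5* and *elo-6*, elongases for branched-chain fatty acids, had mean differences of −0.48 and −0.32. Among 74 genes of fatty acid oxidation and transport 12 (16.2%) were lower and 4 (5.41%) higher in all 4 pairs. Of the 74, 3 met the rule for lower genes, as did 0.347% of all genes bright enough. They were *acdh-1*, which the methionine and one-carbon list holds too, *acox-1.4* and *ech-5*. *acox-1.4*, of the acyl-CoA oxidase family, had −0.47, −0.41, −0.43 and −0.37, and the enoyl-CoA hydratase gene *ech-5* had −0.51, −0.32, −0.49 and −0.52. The last 2 did not overlap between groups and were among the most even across pairs, with SDs of 0.04 and 0.09.

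The largest negative mean belonged to a cuticle collagen, carried mostly by 2 pairs. *bli-1*, whose product builds the struts that join the layers of the adult cuticle, had 4.38, 6.50, 4.81 and 5.33 on mild arrays, against 7.11, 7.17, 6.94 and 5.85 on control arrays. *bli-2*, its partner in the struts, had 4.89, 6.30, 5.27 and 5.07 on mild arrays, against 6.95, 6.95, 6.54 and 5.48 on control arrays. In both genes pairs I and IV differed by at least 1.27 and pairs III and V by at most 0.67, mild array III stood high and control array V low, and the groups overlapped. The collagen genes *col-71* and *col-110* had the same order, with differences of −1.89, −0.68, −1.49 and −0.27 and of −1.70, −0.85, −1.40 and −0.18. limma's standard error was 0.71 for *bli-1* and its unadjusted p 0.0543. Of 172 cuticle collagen genes 0 passed, and the median was −0.07. In all 4 pairs 11 (6.4%) were higher and 19 (11%) lower, against 7.71% and 7.23% of all named genes. Molting genes, which rise and fall within each larval stage, had medians of −0.23, 0.01, −0.17 and 0.05 in pairs I, III, IV and V, and 0 of 46 passed. Among them *nas-37*, a protease gene of the molt, spread over 7.66 to 8.99 on mild and 7.91 to 9.12 on control arrays. The part of the moment of harvest within the stage in the collagen values was not tested.

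Other genes near the top of the ranking have diverse products. *argk-1*, an arginine kinase gene that buffers ATP, had 6.53, 5.94, 7.05 and 6.64 on mild arrays, against 5.60, 5.10, 5.42 and 5.76 on control arrays. *asp-8*, an aspartyl protease gene, had 9.60, 9.46, 9.74 and 9.28 on mild arrays, against 8.68, 7.89, 9.06 and 8.59 on control arrays. B0205.14, which has a clone name next to that of B0205.13, had 6.34, 6.24, 7.26 and 6.12 on mild arrays, against 5.11, 5.67, 5.44 and 5.07 on control arrays. None of the 3 overlapped between groups, which the choice favours. None of them passed in limma, where B0205.14 had an adjusted p of 0.530. T16G1.7, likewise next to T16G1.6 by name and chosen after its values were seen, differed by 0.61, 0.38, 0.81 and 0.78. Whether such neighbours share probes was not tested. The nuclear receptor gene *nhr-115* differed by 1.13, 0.88, 0.82 and 0.64, and the C-type lectin genes *clec-265* and *clec-10* by 1.08, 0.49, 1.45 and 0.30 and by 0.58, 0.39, 1.58 and 0.40. *spig-20* owed its place to 1 array, with 5.02 on mild array V and at most 3.58 on the other mild arrays, against 2.47 to 2.84 on control arrays. Without pair V its mean difference was 0.65, against 1.06 with it. The non-coding RNAs Y92C3A.5 and F45H7.8 also had groups apart. Y92C3A.5 had 5.20 to 5.30 on mild arrays, against 3.56 to 4.74 on control arrays, and F45H7.8 had 4.33 to 4.69, against 3.24 to 3.93.

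On the lower side *gtnt-17* came closest to passing. It had 2.20, 3.07, 2.52 and 3.09 on mild arrays, against 4.11, 4.84, 4.04 and 3.82 on control arrays. Its log2 fold change was −1.48 with a standard error of 0.25 and an adjusted p of 0.245 in limma (0.152 with the block). Its mild values lay below or just above 3.01 and so near the dim end of the arrays. *lys-4*, a lysozyme gene of the intestine's defence, had differences of −1.01, −1.20, −0.37 and −0.38, and *nspd-7*, of a nematode-specific peptide family, −0.95, −1.05, −1.14 and −0.84. The acyltransferase gene *oac-20* differed by −1.72 in pair V and by −0.55 to −0.45 in the other pairs. F31B9.4, Y43D4A.5 and C30G12.2 had means of −1.12, −1.01 and −0.77. The non-coding RNAs among these genes were *lfor-1*, F47C8.3, C05E7.5 and C50E10.12, with means of −0.91 to −0.77. Of these only C50E10.12 did not overlap between groups, with 3.46 to 3.61 on mild and 4.19 to 4.44 on control arrays.

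The 4 pairs did not contribute equally. Among the 72 higher genes the smallest of the 4 differences was that of pair V in 31, of III in 24, of IV in 9 and of I in 8, and the largest was that of pair I in 27 and of IV in 27. Among the 53 lower genes the smallest was that of pair V in 21, and the largest that of pair IV in 19. Across all named genes the SD of the differences was 0.36, 0.33, 0.40 and 0.33 in pairs I, III, IV and V, so that the pairs with wider differences overall also gave most of the largest ones. Pair V was also the pair in which *nuo-5* was reduced least. The part of this in the expression differences was not tested.

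In the lists of mitochondrial chaperones, mitochondrial import and the HIF-1 response 0 genes passed in limma, and the chaperones most used as reporters differed little. The mitochondrial chaperone gene *hsp-6*, the usual reporter of the mitochondrial unfolded protein response, had 12.53, 12.54, 12.35 and 12.16 on mild arrays, against 12.19, 12.26, 12.11 and 12.23 on control arrays. Its differences of 0.34, 0.28, 0.23 and −0.07 gave a log2 fold change of 0.20 with a 95% interval of −0.07 to 0.46. *hsp-60* had a log2 fold change of 0.05 (−0.28 to 0.37). Of the 17 mitochondrial chaperone and protease genes 12 had a 95% interval within 1.49-fold either way. In all 4 pairs 3 (17.6%) were higher and 1 (5.88%), *trap-1*, was lower, against 7.71% and 7.23% of all named genes. The list's pair medians were 0.26, 0.22, 0.20 and −0.11. At an unadjusted p under 0.05 in limma 3 (17.6%) were higher and 0 lower, against 1.74% and 1.44% of all named genes. The DnaJ chaperone gene *dnj-10* and the inner membrane protease gene *ymel-1* did not overlap between groups and had 0.51 and 0.43, with intervals of 0.13 to 0.89 and 0.09 to 0.77 and an adjusted p in limma of 1.00 for each. Of 18 genes of protein import into mitochondria 9 (50%) were higher and 0 lower in all 4 pairs, against 7.71% and 7.23% of all named genes. The 9 were higher by no more than 0.30. These were small differences, and the medians of the import list were 0.22, 0.25, 0.23 and −0.01 in pairs I, III, IV and V. Of 15 genes that respond to HIF-1 or to sulfide 0 passed. *nhr-57*, a target of HIF-1, had differences of 0.89, 0.53, 1.19 and 0.20, and the sulfide:quinone oxidoreductase gene *sqrd-1* 0.67, 0.23, 0.87 and 0.22. *phy-2*, a prolyl 4-hydroxylase gene, had −0.53, −0.32, −0.62 and −0.06. In each of the 3 pair V gave the smallest difference.

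For the pathways that stayed near 0 the interval of each gene bounds its change. A gene was taken as bounded where its 95% interval in limma lay within ±0.58, that is within 1.49-fold either way, as it did for 16673 (65.4%) of all named genes and for 56.2% of the 15253 brighter ones. The cytosolic ribosome stood first by this measure. All 63 cytosolic ribosomal protein genes met it, with log2 fold changes between −0.13 and 0.11, as did 40 of 41 ribosome biogenesis genes and 28 of 31 genes for aminoacyl-tRNA synthetases. The respiratory chain beside *nuo-5* was bounded nearly as well. Bounded were 30 of 31 other complex I subunits measured (−0.16 to 0.09) and 37 of 38 subunits of complexes II to V (−0.20 to 0.36). So were 24 of 26 genes of the tricarboxylic acid cycle (−0.09 to 0.13) and 66 of 70 mitochondrial ribosomal protein genes (−0.35 to 0.32). Subunits whose names matched no measured gene, such as *nuo-3* of complex I, are not in these counts. *lpd-5*, which encodes the NDUFS4 subunit of complex I and is another RNAi target of the study, had 7.47, 7.58, 7.56 and 7.52 on mild arrays, against 7.54, 7.59, 7.61 and 7.72 on control arrays. Its interval ran from −0.51 to 0.35.

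Bounded lists could still lean one way. Over all named genes 7.71% were higher and 7.23% lower in all 4 pairs. Of 33 proteasome genes 32 were bounded, while 14 (42.4%) were lower in all 4 pairs and 0 higher in all 4, with a median of −0.10 and pair medians of −0.04, −0.09, −0.17 and −0.12. *rpn-12*, a subunit of the regulatory particle, had the largest of these, −0.23, at an unadjusted p of 0.0411 in limma. Of the 63 cytosolic ribosomal protein genes 23 (36.5%) were lower in all 4 pairs, with a median of −0.05. On the other side, 10 of 70 mitochondrial ribosomal protein genes (14.3%) were higher and 0 lower in all 4 pairs. Their pair medians were 0.07, 0.11, 0.12 and −0.04. Of 23 genes of the endoplasmic reticulum stress response 19 were bounded and 8 (34.8%) were lower in all 4 pairs, among them the protein disulfide isomerase genes *pdi-2* and *pdi-3* at −0.15 each. Of 31 autophagy and mitophagy genes 24 were bounded, and *pink-1*, a kinase gene that marks damaged mitochondria, differed by 1.10 in pair I and by 0.12 to 0.24 in the others. Genes of the same sample share its RNA and normalization, so such counts are not counts of independent events.

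Body muscle and cell division were also bounded, in 19 of 21 and 61 of 67 genes. Of the other tissue lists 8 of 20 intestine, 8 of 15 epidermis and 12 of 16 neuron genes were. Bounded were 37 of 52 neurotransmission genes (71.2%) but only 60 of 154 neuropeptide genes (39.0%). Over all named genes the share was 65.4%. Of the neuropeptide genes 27 (17.5%) were higher and 3 (1.95%) lower in all 4 pairs, against 7.71% and 7.23% of all named genes. The median of the neuropeptide genes was 0.10, and *flp-28* had the differences 0.15, 0.21, 0.74 and 0.33. The neuroligin gene *nlg-1*, a synaptic adhesion gene at the centre of the study, had 7.33, 7.03, 7.42 and 7.03 on mild arrays, against 6.89, 6.75, 7.36 and 7.12 on control arrays. The groups overlapped, and the log2 fold change was 0.17 with an interval of −0.17 to 0.52. Its partner *nrx-1* (neurexin) was at 0.17 (−0.38 to 0.72), the active zone gene *unc-10* at 0.12 (−0.42 to 0.65) and the globin gene *glb-10* at 0.18 (−0.31 to 0.68). A rise of 1.49-fold thus lies outside the interval of *nlg-1* and inside those of the other 3, while a fall of that size lies outside all 4. Without pair V the mean difference of *glb-10* was −0.02, against 0.18 with it.

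Some lists cannot be said to have stayed near 0. Of 29 vitellogenin, adult and oocyte genes 1 was bounded, of 46 molting genes 11, of 172 collagen genes 46, of 17 CUB-like immune genes 2, of 16 lysozyme genes 4 and of 15 HIF-1 response genes 4. Further lists below the 65.4% of all named genes included the neuropeptides (39.0%) and the methionine and one-carbon genes (28.6%). The UDP-glucuronosyltransferases (32.8%), the cytochrome P450 genes (36.5%) and the desaturases and elongases (37.5%) were others. The spread of the strong arrays enters these intervals. In the fit of the 8 mild and control arrays alone the bounded genes were 13 of the 29 vitellogenin, adult and oocyte genes, 91 of the 172 collagen genes and 17 of the 46 molting genes, and 4 of the 15 HIF-1 response genes.

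**Figure D3:**
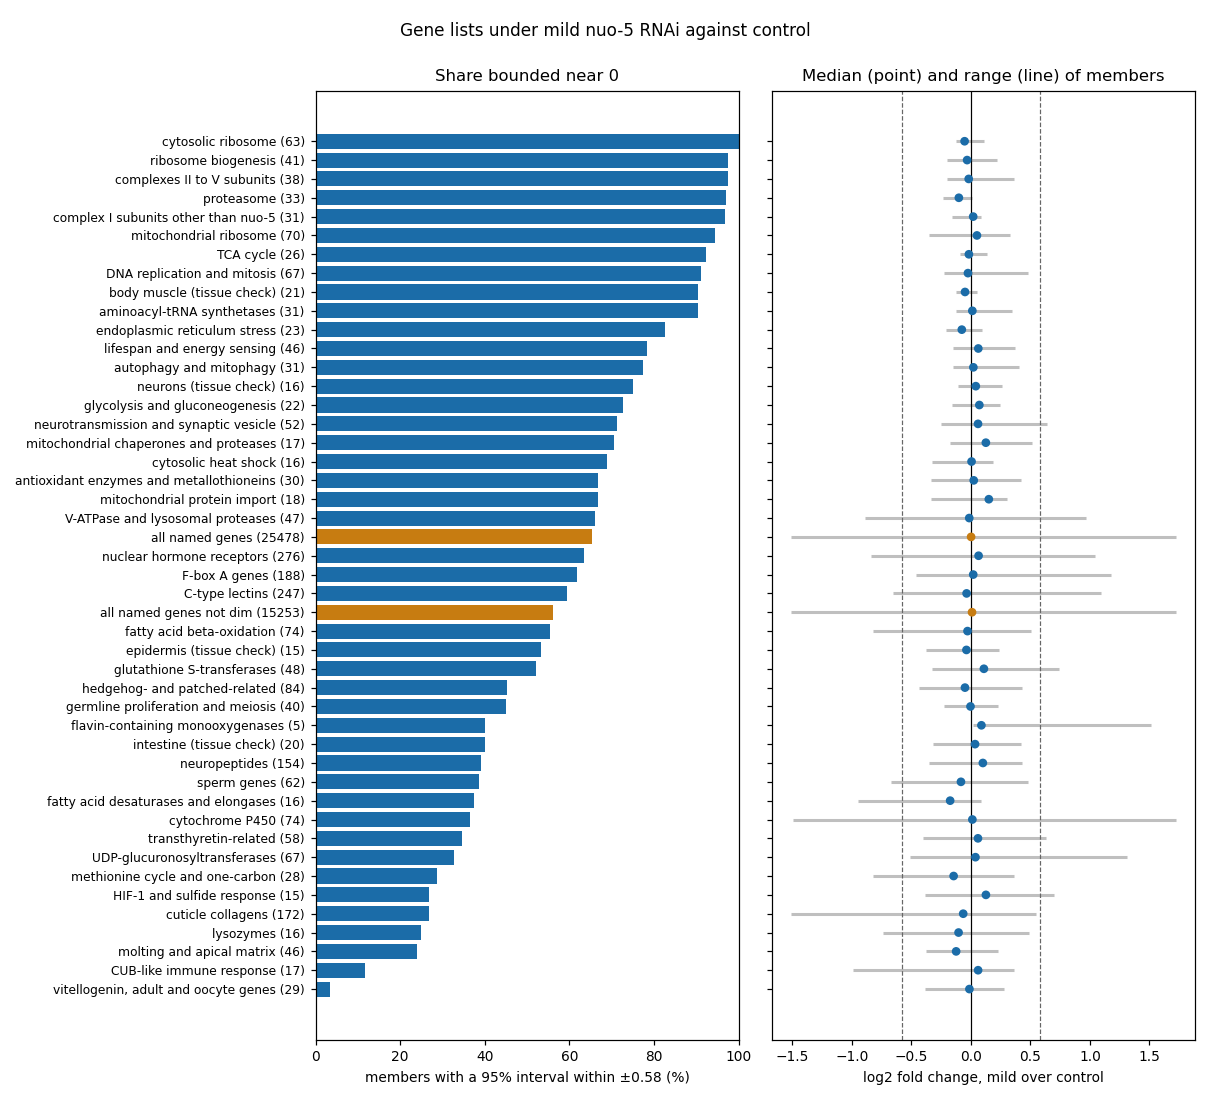
Left, share (%) of each gene list with a 95% interval within ±0.58 on the log2 scale. Right, median (point) and range (line) of the members' log2 fold changes, mild over control, with dashed lines at ±0.58, numbers of members in brackets and all named genes in orange. The cytosolic ribosome (63 of 63) stands at the top and adult and oocyte genes (1 of 29) at the bottom.

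Strong RNAi gives context for the higher genes, and values are placed side by side, since its comparisons share arrays with those of mild RNAi. In limma 5.82% of probe sets were higher and 4.34% lower under strong than under mild RNAi at an adjusted p of 0.05. *fmo-2* was at 6.43 to 7.06 on the strong arrays and T16G1.6 at 9.03 to 9.46, above all mild arrays, with log2 fold changes between strong and mild of 2.37 and 1.97 (adjusted p in limma 9.4e-05 and 0.000326). B0205.13 was higher again by 0.78 (adjusted p in limma 0.0155), B0205.14 by 3.40 and *cyp-33C8* by 2.21 (adjusted p in limma 4e-05 and 0.00191). *asp-8*, *argk-1* and F45H7.8 did not pass between strong and mild, with log2 fold changes of −0.12, −0.12 and −0.07 and standard errors of 0.25, 0.41 and 0.17. Among the lower genes *gpdh-1* was at 5.13 to 6.69 and *gtnt-17* at 2.24 to 2.87 on the strong arrays, each overlapping the mild arrays. *acdh-1*, at 8.25 to 10.27, overlapped both other groups.

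**Figure D4:**
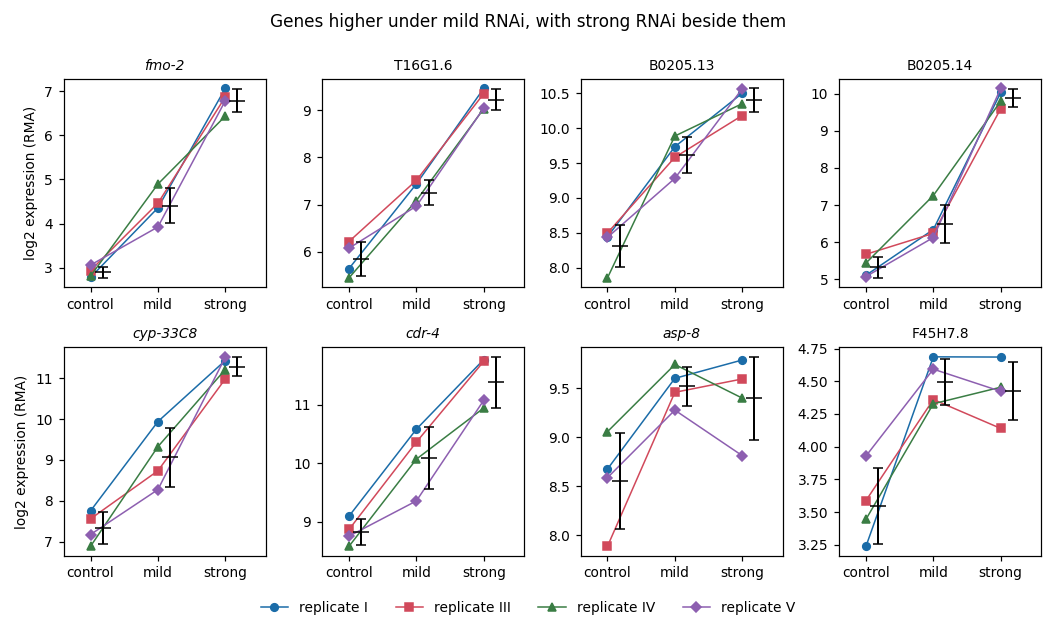
Log2 expression (vertical axis) on control, mild and strong arrays (horizontal axis) for 8 genes that were higher under mild RNAi, with lines joining arrays of one replicate number and black bars giving the mean ± SD (n = 4). *fmo-2*, T16G1.6, B0205.14 and *cyp-33C8* lie higher again on every strong array, while *asp-8* and F45H7.8 do not.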

How the data were processed

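Total RNA of L3 larvae was hybridised to 12 arrays (4 mild RNAi, 4 control, 4 strong RNAi). The deposited log2 values are those of RMA as the authors ran it (background correction, quantile normalization, 1 value per probe set); the methods and the labels name different versions of the Gene ST array, and a further replicate was left out by the authors. The 29317 deposited log2 values per array were used unchanged. Of these probe sets 25546 have 1 gene symbol, 646 several and 3125 none; 25495 matched the reference gene table. A gene is represented by its brightest probe set (57 genes had more than 1).

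Group means were fitted over 12 arrays with limma 3.58.1 in R 4.3.3 (3.51 prior and 9 residual degrees of freedom), and p-values adjusted after Benjamini and Hochberg over every probe set. The code was tested on simulated data. Mild and control arrays of one number deviated together from their group means (correlations 0.34, 0.25, 0.27 and 0.20 across probe sets). For arrays of unlike number the correlations ran from −0.34 to 0.19, the highest being that of mild V with control IV. The numbers were taken to pair the arrays. What a number shares is not stated, and p-values measure the spread between these arrays. Named genes are those called, the 20 largest positive and 20 largest negative mean differences among the 125, up to 4 members per gene list with 4 differences of one sign, and genes the study discusses. Members, lists and rules were chosen with earlier results of these data known. The alternatives were a replicate block, the 8 arrays alone, renormalization, centring, a filter on dim probe sets, other variance models, other thresholds and leaving out arrays or pairs. Figures were drawn with matplotlib 3.10.9.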

Additional observations from a re-analysis of the deposited data

Results flagged for a closer look

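Of 96 groups of 4 arrays checked for a single far value among the named genes with calls, top ranks or a place in the study, 3 held one, and chance alone gives about 1 in 20. *cyp-35C1* had 2.75 on mild array III, against 4.91 to 5.13 on the other mild arrays. F48C1.3 had 4.08 on mild array III, against 4.59 to 4.66 on the other mild arrays. B0205.13 had 7.85 on control array IV, against 8.43 to 8.50 on the other control arrays, and its difference in pair IV (2.03) is thereby the largest of its 4.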

How the results depend on the processing

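The count of 5 probe sets rested on the choice of fit. It was 0 with the replicate block, 0 in the 8 arrays with the block, 1 in the 8 arrays without it (probe set 18450597, not among the 5), 0 after a further quantile normalization (1043 at an unadjusted p under 0.05 in limma), 0 after centring on array medians (936) and 0 without variance moderation (1105). Leaving out 1 array or 1 pair gave 0 to 3, namely *fmo-2* without mild array V, and *fmo-2*, probe set 18617499 and another, probe set 18582829, without pair V, and leaving out all 3 arrays of replicate V, an alternative chosen after seeing the data, gave 0. It was 5 with array weights, without dim probe sets and at an adjusted p of 0.1, 4 with an intensity trend plus robust estimation, and 4 with probe sets of 1 symbol only. The 5 log2 fold changes kept their direction in every alternative, that of *nuo-5* between −1.11 and −0.94 with an adjusted p in limma of 0.0389 to 0.625. The cause of the lost calls was not tested.

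The count of 125 genes became 30 (18 higher, 12 lower) with each difference at least 0.5, and 2507 (1422 higher, 1085 lower) with any size. After a further quantile normalization 58 of the 72 higher and 46 of the 53 lower genes remained, and after centring 53 and 40. Genes bounded near 0 in all lists together numbered 1379, and 1478 with the block, 1561 in the 8 arrays and 1343 after centring. The mean paired difference of *nuo-5* moved by less than its SD between pairs in each alternative run. With the block the bounded genes became 35 of 67 UDP-glucuronosyltransferase genes (22 without it), 17 of 46 molting genes (11), 28 of 40 germline genes (18) and 1 of 17 CUB-like genes (2). The strong against mild calls of *fmo-2*, T16G1.6, B0205.13, B0205.14 and *cyp-33C8* passed with the block too (adjusted p in limma 0.000508 to 0.0266), a fit added after their values were seen. Promoter sequences were not analysed here.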

Other observations

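Large families not described above held few large differences, and many of their members were dim. A mean under 3.01 was found for 131 of 188 F-box A genes and 138 of 247 C-type lectin genes. It was found for 93 of 276 nuclear hormone receptor genes and for 10225 of all 25478 named genes. Of 188 F-box A genes, a family of worm-specific ubiquitin ligase adaptors, 0 passed and 17 were higher and 10 lower in all 4 pairs. *fbxa-92*, annotated as a pseudogene, had the largest mean difference among these, 1.17, made of 1.53, 0.02, 2.58 and 0.56. Of 247 C-type lectin genes 19 were higher and 18 lower in all 4 pairs. Of 276 nuclear hormone receptor genes 37 (13.4%) were higher and 13 lower in all 4 pairs, against 7.71% and 7.23% of all named genes, and 0 passed. *nhr-234* lay on the lower side, with 4.67, 5.22, 3.95 and 5.21 on mild arrays, against 5.56, 5.23, 5.40 and 6.21 on control arrays.

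Over all named genes 7.71% were higher and 7.23% lower in all 4 pairs. Of 62 sperm genes, which L3 larvae express weakly, 1 was higher and 11 (17.7%) were lower in all 4 pairs. The median log2 fold change of the sperm genes was −0.08. Of 58 transthyretin-related genes 11 (19%) were higher and 6 lower in all 4 pairs, with *ttr-30* at 0.64, 0.20, 1.06 and 0.51. Of 84 hedgehog- and patched-related genes 5 were higher and 12 (14.3%) lower in all 4 pairs, with *ptr-19* at −0.35, −0.30, −0.59 and −0.34. None of these genes passed in limma after adjustment.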
